A study of Mus musculus with 15 samples.

Results

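The genes described are the inhibitors of cyclin-dependent kinases, the D cyclins and the kinases that D cyclins bind, in thymic leukemia lines from mice that lack E2a, with and without Lef1. The members were named in advance as Cdkn1a, Cdkn1b, Cdkn2a, Cdkn2c, Cdkn2d, Ccnd1, Ccnd2, Ccnd3, Cdk4 and Cdk6, and a member was taken where its symbol has a row in the table of expression values. This found 9 of the 10, among 12545 genes listed. The expression of Cdkn2d was not analysed here.

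RNA-sequencing was done on 15 leukemia lines of FVB/NJ mice, with 1 library per line, to compare 2 genotypes. The 7 E2a-/- lines lack E2a, the gene Tcf3. The 8 DKO lines lack E2a and in addition carried floxed Lef1 alleles, deleted by a Cre transgene that is expressed from the Lck promoter. The lines were grown in OPTI-MEM from thymic cells of moribund mice, so they have been selected for growth in culture. Neither the labels nor the study state that each line came from a different mouse, and each was counted as 1 leukemia. The labels name no batch. Reads on the listed genes ranged from 4847970 in DKO79.9 to 21681586 in SKO95, and values are given in CPM, the reads of a gene scaled to the reads assigned to all genes in that line.

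D cyclins bind CDK4 or CDK6, and the active kinase phosphorylates RB and its relatives, which frees E2F factors to switch on genes for DNA replication. INK4 proteins, such as the p16Ink4a product of Cdkn2a and the p18 product of Cdkn2c, bind CDK4 and CDK6 and keep them from D cyclins, while CIP/KIP proteins, p21 from Cdkn1a and p27 from Cdkn1b, act mainly on cyclin and CDK2 complexes. Developing T cells depend on cyclin D3, and loss of Cdkn2a is a frequent event in T cell leukemia.

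The targeted genes were read first. Lef1 was at 103 to 210 CPM in the 8 DKO lines (median 128) and at 59.0 to 1558 CPM in the 7 lines labelled E2a-/- (median 933). In 6 of the E2a-/- lines Lef1 was above every DKO line, at 668 CPM or more, but the library labelled SKO132 was at 59.0 CPM, below every DKO line. That library therefore goes against what its label leads one to look for, and values are given with and without it where they rest on it. Tcf3 was at 117 to 218 CPM in the DKO lines and 151 to 243 CPM in the E2a-/- lines. The table holds 1 value per gene, and deleted exons of Lef1 and Tcf3 cannot be told apart from retained ones.

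Cdkn1a, which codes for p21, was the one member whose groups did not overlap. It was at 81.4 CPM in DKO79.9, 201 in DKO102.4, 135 in DKO170.2, 166 in DKO192.3, 74.7 in DKO241, 68.2 in DKO548, 58.5 in DKO713 and 92.7 in DKOTu3. In the lines labelled E2a-/- it was at 3.13 CPM in SKO95, 16.8 in SKO115.2, 30.0 in SKO132, 40.4 in SKO137.1, 21.7 in SKO156.6, 16.3 in SKO186.5 and 23.1 in SKO163.5. The lowest DKO line, DKO713, was thus above the highest E2a-/- line, SKO137.1, and SKO95 stood far below the rest of its group. The 68 reads of Cdkn1a in SKO95 give a 95% Poisson interval of 2.43 to 3.97 CPM, which covers counting error only and does not reach the next line. Because the study itself reported Cdkn1a as higher in DKO on these same lines, its separation here is no independent evidence. Separately, the study reported increased Cdkn1a by microarray after Cre deleted Lef1 in an established E2a-/- leukemia.

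The mean of Cdkn1a was 110 ± 52.0 CPM (SD, n = 8) over the DKO lines and 21.6 ± 11.7 CPM (SD, n = 7) over the E2a-/- lines. On the log2(CPM + 1) scale the difference was 2.41 with a standard error of 0.41 and a 95% interval of 1.53 to 3.30. The adjusted p from limma was 0.0257, which misses the threshold of 0.01 used in the study, and the 2-sided exact permutation p was 0.000155, the smallest that 8 against 7 lines can give. Of all genes, 22 of 12545, or 0.175%, had groups that did not overlap in either direction, and 1 of the 9 members was among them. With limma, 0 of the 9 members and 6 of 12545 genes (0.0478%) had an adjusted p under 0.01, while 1 member and 19 genes (0.151%) had one under 0.05. At an unadjusted p under 0.05 limma took the same number of members, 1, and 1275 genes (10.2%). edgeR's likelihood ratio test, with 155 genes called (1.24%), and DESeq2, with 177 (1.41%), each called 1 member at 0.01, while edgeR's quasi-likelihood test called 0. The member called by both was Cdkn1a, with an adjusted p of 2.0e-06 and 1.8e-06. Without SKO95 the log2 difference was 2.05 and the adjusted p from limma was 0.00730, and without the library labelled SKO132 they were 2.53 and 0.0153. Over the 15 fits with 1 line left out the adjusted p from limma ran from 0.00730 to 0.0714, the latter without DKO170.2, and it was over 0.05 in 7 of them. It was 0.0518 with edgeR's quasi-likelihood test. SKO156.6 and SKO186.5 were the most alike pair of lines over all genes (Spearman's rho 0.987), and with them averaged into 1 value it was 0.0566 from limma, so the call at 0.05 depends on the lines and on the test. As these are whole cultures, fewer cells with the RNA and less RNA per cell cannot be told apart.

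Cdkn1b, which codes for p27, lay the other way around in its means. It was at 34.8 to 78.03 CPM in the DKO lines (median 54.8) and 45.3 to 118 CPM in the E2a-/- lines (median 74.5). The ranges overlap broadly, with SKO95, SKO115.2 and SKO163.5 above every DKO line and 3 DKO lines below every E2a-/- line. The log2 difference was -0.45 (95% interval -0.95 to 0.06), with an adjusted p of 0.557 from limma and a 2-sided exact permutation p of 0.1001. Without the library labelled SKO132, the lowest E2a-/- line for this gene, the log2 difference was -0.56 with an adjusted p of 0.345 from limma.

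**Figure D1:**
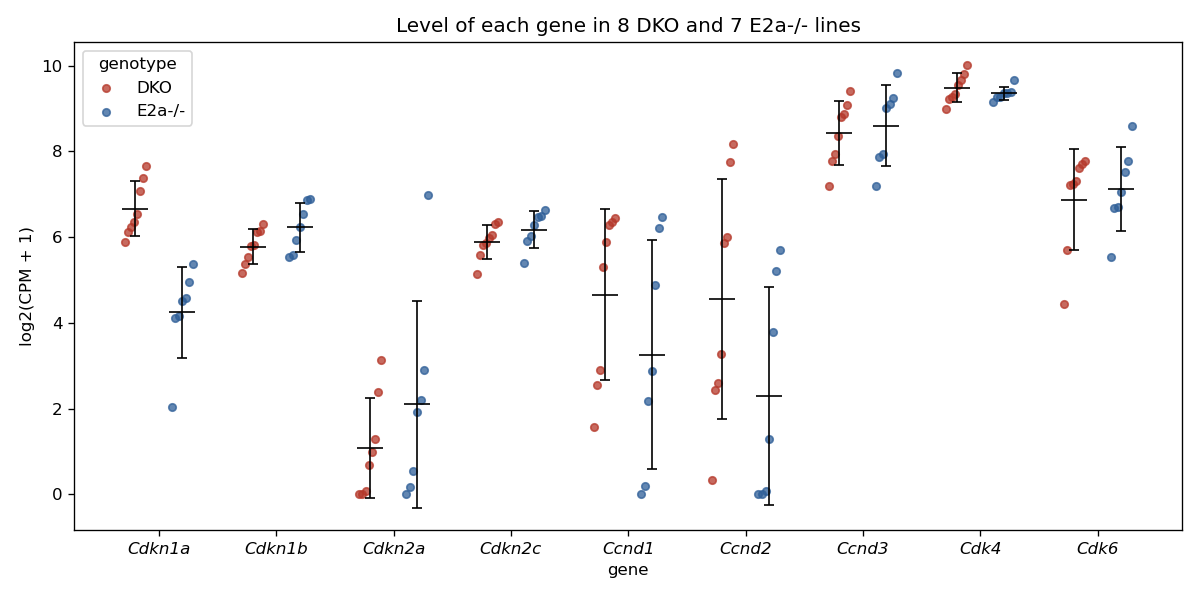
Level of each of the 9 genes as log2(CPM + 1), with a point for each line, DKO in red and E2a-/- in blue, and the mean with its SD over lines as a black bar. Cdkn1a is the gene whose groups stand apart, while Ccnd1, Ccnd2 and Cdkn2a spread widely in both genotypes.

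Among the INK4 genes, Cdkn2a ranged from no read at all to the level of an expressed gene. Its locus codes for p16Ink4a and, from another first exon and in another reading frame, for p19Arf, which holds back MDM2 and so stabilizes p53. The table has 1 value for both products, so they cannot be told apart. Of the DKO lines, DKO102.4 was at 7.77 CPM, DKO170.2 at 4.28, DKO192.3 at 1.45, DKOTu3 at 0.999, DKO79.9 at 0.618, DKO241 at 0.0531, and DKO548 and DKO713 at 0. Of the lines labelled E2a-/-, SKO132 was at 125.4 CPM, SKO186.5 at 6.50, SKO156.6 at 3.59, SKO163.5 at 2.80, SKO115.2 at 0.466, SKO137.1 at 0.124 and SKO95 at 0. The library labelled SKO132 thus stood apart from the other 14, none of which was above 7.77 CPM.

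At or near 0, meaning at or under the amount that 3 reads give in the same line, were 6 of 15 lines. These were DKO79.9 with 3 reads, DKO241 with 1, SKO137.1 with 2, and DKO548, DKO713 and SKO95 with 0. Both genotypes were among them, with 4 of 8 DKO and 2 of 7 E2a-/- lines. In the 3 lines without a read, the 95% Poisson interval reaches up to 0.212 CPM in DKO548, 0.178 in DKO713 and 0.170 in SKO95. Levels below these cannot be told apart from 0 there. DKO79.9 was the shallowest line, where 3 reads make 0.618 CPM with a Poisson interval of 0.127 to 1.81 CPM, so its place among the low lines depends on its depth. A value at 0 does not tell a deleted gene from a silent one.

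Mtap, the enzyme gene beside Cdkn2a that is often lost with it in tumors, was read in every line. It was at 179 CPM in DKO548, 168 in DKO713 and 125 in SKO95, the lines with no Cdkn2a read, within the 91.8 to 205 CPM of the lines other than SKO156.6 and SKO186.5. Those last lines were highest for Mtap, at 524 and 470 CPM, and both had Cdkn2a reads. Klhl9, farther along on the same side, was between 86.2 and 157.3 CPM in the 15 lines. Mrpl48-ps, the next listed gene on that side, was at 0 in DKO241 and in the library labelled SKO132. It was at 1.85 to 5.81 CPM in the other lines. On the other side the nearest listed gene, Gm12666, is 2916878 bases away, so the table has no gene close to Cdkn2a there. It was at 0 in SKO156.6, 0.0948 CPM in SKO186.5 and 0.0538 in SKO163.5, and at 1.24 to 4.20 CPM in the other lines.

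The means of Cdkn2a were 1.90 ± 2.76 CPM (SD, n = 8) over the DKO lines and 19.8 ± 46.6 CPM (SD, n = 7) over the E2a-/- lines, and the latter rests on 1 library. Without the library labelled SKO132 the E2a-/- mean was 2.25 ± 2.56 CPM (SD, n = 6). The log2 difference was -1.03 (95% interval -2.92 to 0.86, adjusted p = 0.716 from limma) with that library and -0.22 (adjusted p = 0.915 from limma) without it. With all lines it was -3.38 with edgeR's likelihood ratio test and -0.17 with DESeq2. The exact permutation p with all lines was 0.332. On the log2(CPM + 1) scale the SD between lines was 1.16 over the DKO lines and 2.42 over the E2a-/- lines. Both are larger than the size of the limma difference of -1.03. The -3.38 from edgeR is on another scale, without the 1 added to CPM, so it is not set against these SDs. edgeR was not run without the library labelled SKO132.

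**Figure D2:**
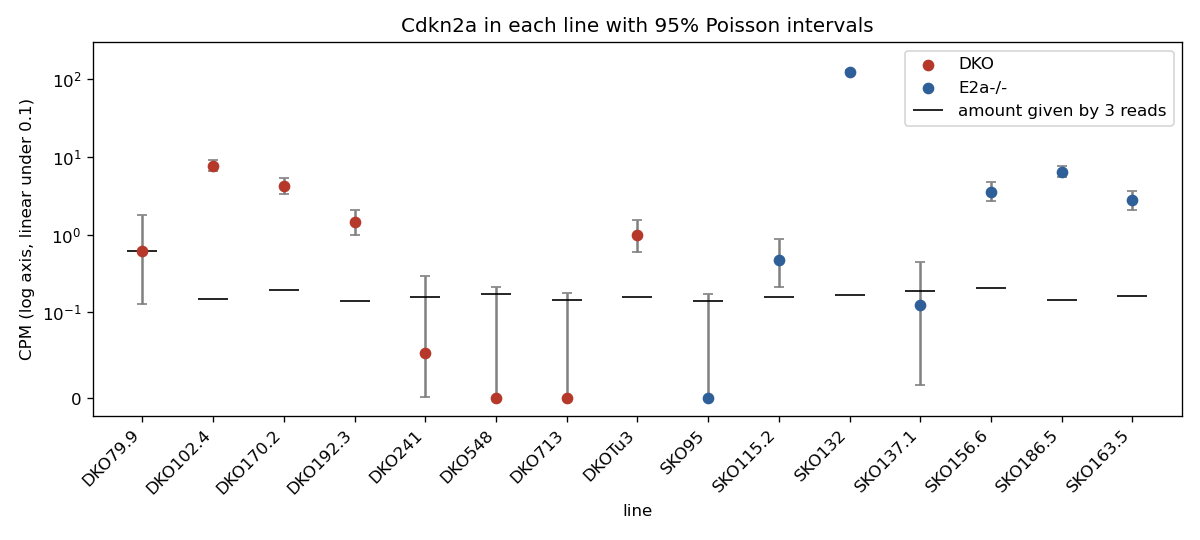
Cdkn2a in CPM in each of the 15 lines, with 95% Poisson intervals in grey and the amount given by 3 reads as a black dash, on a log axis that is linear under 0.1 CPM. The library labelled SKO132 is at 125.4 CPM, and 6 lines of both genotypes are at or under the dash.

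The library labelled SKO132 differed from the others in further genes, which were chosen after their values were seen. Its Notch1 level was 31.3 CPM against 830 to 2266 CPM in the other lines, and its Ezh2 level, a Polycomb enzyme gene, was 162 CPM against 316 to 511 CPM. Trp53 was at 160 CPM against 220 to 440 CPM, and Rb1 at 135 CPM against 40.1 to 114.9 CPM. Its summed T-lineage markers came to 2596 CPM, while the other lines ranged from 4672 to 7600 CPM. Of 155 listed genes read in these lists, it was the lowest line for 33, where the other lines were so for 0 to 24, and the highest for 11, within the 5 to 16 of the others. The part of these differences in its Cdkn2a level was not tested.

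Cdkn2c, which codes for p18Ink4c, was read in every line. It was at 34.1 to 80.8 CPM in the DKO lines (median 60.0) and 41.1 to 97.9 CPM in the E2a-/- lines (median 77.4). The ranges overlap, and the lowest line of each genotype was DKO713 and SKO163.5. The log2 difference was -0.29 (95% interval -0.72 to 0.14), with an adjusted p of 0.648 from limma and an exact permutation p of 0.194, and it was -0.18 without DKO713 and -0.42 without SKO163.5. The gene next to it, 9630013D21Rik, which lies 3023 bases away, was also lowest in these lines, at 0.773 CPM in DKO713 and 0.538 in SKO163.5 against 4.40 to 16.2 CPM in the other lines. Rnf11, farther on the same side, was at 2.80 CPM in SKO163.5 and at 13.3 CPM or more elsewhere.

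Per kilobase of the longest principal transcript, Cdkn2c was above Cdkn2a in 14 of 15 lines. Cdkn2a took 85.3% of the sum of both per-length levels in the library labelled SKO132, and 0% to 25.5% in DKO lines. Cdkn2c was thus the more abundant of the INK4 genes listed, apart from that library.

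Of the D cyclins, Ccnd3 was the main one in nearly all lines. Its level was 145 to 677 CPM in the DKO lines (median 389) and 146 to 913 CPM in the E2a-/- lines (median 518). The highest line, SKO95, was E2a-/-, and the lowest, DKOTu3 and SKO132, were of different label. The difference in log2 was -0.17 (95% interval -1.03 to 0.69), with an adjusted p of 0.917 from limma and an exact permutation p of 0.695. Its sign and size rest on single lines, since it was 0.01 without DKOTu3, 0.04 without SKO95 and -0.40 without the library labelled SKO132, where the lowest E2a-/- line was at 231 CPM.

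Ccnd2 was the most variable member. It was at 288 CPM in DKO713, 215 in DKOTu3, 63.1 in DKO79.9, 57.0 in DKO102.4, 8.74 in DKO170.2, 5.06 in DKO548, 4.39 in DKO192.3 and 0.265 in DKO241. In E2a-/- lines it was at 50.8 CPM in SKO186.5, 35.8 in SKO156.6, 12.9 in SKO163.5, 1.45 in SKO115.2, 0.0622 in SKO137.1, and 0 in SKO95 and SKO132. So 4 of 8 DKO lines were above every E2a-/- line, while the other 4 lay among them. The log2 difference of 2.26 had a 95% interval of -0.46 to 4.98, an adjusted p of 0.570 from limma and an exact permutation p of 0.130, and was 1.74 without DKO713 and 3.40 with a pseudocount of 0.1. Across the 15 lines its SD on the log2 scale was 2.84, larger than that of 99.1% of the 1165 genes whose mean log2 level is within 0.5 of its own.

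Ccnd1 varied widely as well. It was at 1.96 to 85.7 CPM in the DKO lines (median 48.3) and 0 to 88.0 CPM in the E2a-/- lines (median 6.40). SKO95 at 88.0 CPM was the highest line, next to DKO79.9 at 85.7, DKOTu3 at 81.3, DKO548 at 76.8 and SKO163.5 at 72.7. SKO115.2 with 0.155 CPM and SKO132 with 0 were under every DKO line. The difference in log2 was 1.40 (95% interval -0.97 to 3.76), with an adjusted p of 0.689 from limma and an exact permutation p of 0.260. It was 0.85 without the library labelled SKO132, 0.89 without SKO115.2 and 1.93 without SKO95, and it ran from 0.62 with edgeR's quasi-likelihood test to 2.14 with a pseudocount of 0.1.

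Taking the D cyclins together, their sum was 325 to 682 CPM in the DKO lines and 146 to 1001 CPM in the E2a-/- lines. Both ends of the range carry the E2a-/- label, the library labelled SKO132 at 146 CPM and SKO95 at 1001 CPM, and without the former the lowest of that label was SKO186.5 at 288 CPM. Of the D cyclin reads of a line, Ccnd3 took 32.9% in DKOTu3 (95% Wilson interval 31.9% to 33.9%) and 50.2% in DKO713 (49.4% to 51.1%), and 59.5% to 100% in the other lines. These intervals cover counting error only. In DKOTu3 and DKO713 Ccnd2 took 48.7% and 43.8%. Per kilobase of listed width, which is no transcript length, Ccnd3 was the highest D cyclin in 14 of 15 lines, with DKOTu3 as the exception. Per kilobase of the longest principal transcript, a length chosen after the data were seen, it was the highest in 15, and with all exons merged, chosen at the same time, in 14.

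**Figure D3:**
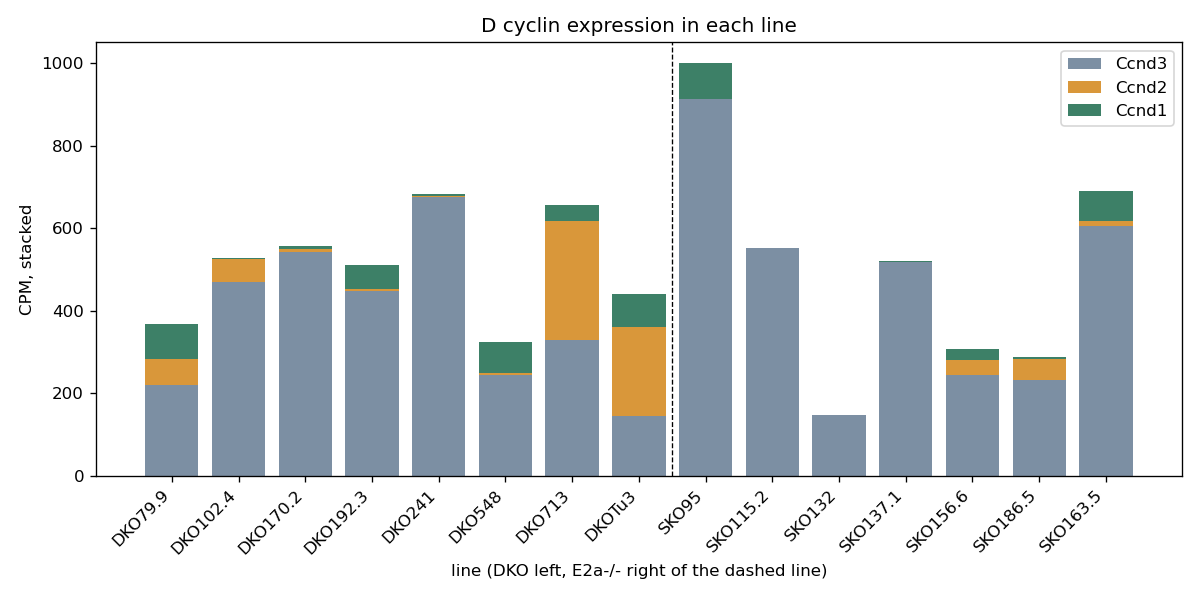
CPM of Ccnd3, Ccnd2 and Ccnd1 stacked for each line, DKO to the left and E2a-/- to the right of the dashed line. Ccnd3 makes up the larger part in most lines, Ccnd2 is tall in DKO713 and DKOTu3, and the sum runs from 146 CPM in SKO132 to 1001 CPM in SKO95.

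Of the kinases, Cdk4 was the higher in every line. It was at 506 to 1042 CPM in the DKO lines (median 699.6) and 572 to 813 CPM in the E2a-/- lines (median 654), with the highest line 2.06 times the lowest. The groups overlap, and both ends of the range, DKO241 and DKO170.2, were DKO lines. The difference in log2 was 0.13 (95% interval -0.16 to 0.43), with an adjusted p of 0.774 from limma and an exact permutation p of 0.377. It was 0.05 without DKO170.2, 0.20 without DKO241 and 0.06 with array weights.

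Cdk6 varied far more, by 18.6 times from the lowest to the highest line. It was at 20.8 to 217 CPM in the DKO lines (median 154) and 45.7 to 388 CPM in the E2a-/- lines (median 131). DKO170.2 was lowest at 20.8 CPM, and SKO186.5 highest at 388 CPM. DKO minus E2a-/- in log2 was -0.25 (95% interval -1.36 to 0.86), with an adjusted p of 0.902 from limma and an exact permutation p of 0.671, and with 1 line left out it ran from -0.51 without SKO115.2 to 0.10 without DKO170.2. It was -0.14 without the library labelled SKO132 and -0.00427 without SKO186.5. Its SD across lines exceeded that of 98.3% of the 1621 genes of like mean, whereas that of Cdk4 exceeded 54.9% of 184. DKO170.2 thus joined the lowest Cdk6 with the highest Cdk4.

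Cdk4 was above Cdk6 in 15 of 15 lines by each of the lengths used. The size of the ratio depended on the length. The listed width of Cdk4, 9655 bases, is larger than the whole listed span of the gene, from base 126500590 to 126504976, so it is no transcript length, and the ratio it gives is not reported. Per longest principal transcript, which is 2053 bases for Cdk4, the median ratio was 30.3, with 9.48 to 281 over the lines, and with all exons merged the median was 23.3.

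The genes whose levels over the 15 lines ran most like those of a member were found by Spearman's rho over 11566 other genes of at least 1 CPM on average. For Cdkn1a these were Cd74 (rho 0.879), Tbx21 (0.871) and Dgcr6 (0.864). For Cdkn2a they included Itga11 (0.929) and Gm9800 (0.814), and for Cdk6 they were Ppargc1b (0.943), D3Ertd254e (0.939) and Slc6a6 (0.918). Ccnd2 ran most like Arhgef10l (0.867), Iigp1 (0.855) and Zfp111 (0.845), and Ccnd3 like Ociad1 (0.861), Dmpk (0.846) and Ska2 (0.839). Tbx21, which codes for T-bet, had an adjusted p of 0.0208 from limma, with means of 9.69 CPM in the DKO lines and 1.85 CPM in the E2a-/- lines, the latter 0.835 CPM without the library labelled SKO132, where the adjusted p from limma was 0.000106 and passed the threshold of 0.01. These are descriptions of the same 15 libraries, the highest of all values compared.

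Of the 49 listed genes within 3 places of a member on its chromosome, 0 had an adjusted p under 0.05 from limma, 3 had an unadjusted p under 0.05 and 0 had groups that did not overlap. Over all genes these shares were 0.151%, 10.2% and 0.175%. The gene with the lowest adjusted p, 0.220 from limma, was Mettl1, 3 places from Cdk4. It was at 43.5 ± 5.20 CPM (SD, n = 8) over the DKO lines and 34.5 ± 3.73 CPM (SD, n = 7) over the E2a-/- lines. Stk38, Srsf3 and Ppil1 around Cdkn1a were between 103 and 193, 413 and 676, and 62.1 and 92.1 CPM, with groups that overlap. Rab44, the next listed gene after Cdkn1a, was at 4.69 to 162.6 CPM in the DKO lines and 1.99 to 32.9 CPM in the E2a-/- lines. For Rab44, 4 DKO lines were above every E2a-/- line, and the log2 difference was 1.48 (adjusted p = 0.520 from limma). Trp53cor1 was at 0 to 2.87 CPM and Cpne5 at 3.23 to 12.5 CPM over the 15 lines, again with groups that overlap. The spans of Ccnd1, Ccnd3 and Cdk4 overlap those of LTO1, Bysl and Tspan31 by 818, 353 and 604 bases. The values do not show how reads of the shared bases were assigned.

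The wider pathway showed few differences in the limma fit. Across all 12545 genes 5810 had a positive and 6735 a negative log2 difference, with a median of -0.02, and 10 higher and 9 lower genes had an adjusted p under 0.05. Of the 9 members, 4 were higher and 5 lower in DKO, with a median of -0.17. Apart from Cdkn1a, no gene of the lists below had an adjusted p under 0.05.

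Of 10 genes of the CDK2 arm and other cyclins, 1 was higher and 9 lower, with a median log2 difference of -0.09 and 0 at an adjusted p under 0.05 in either direction. At an unadjusted p under 0.05 from limma were 0 higher and 1 lower, where 10.2% of all genes were. Ccna2, the cyclin of S phase and the most abundant of them per length, was at 335 ± 39.5 CPM (SD, n = 8) over the DKO lines and 333 ± 26.7 CPM (SD, n = 7) over the E2a-/- lines. Cdc25b, a phosphatase that activates CDKs, had the largest difference, -0.34 (adjusted p = 0.652 from limma). The 3 genes of the CDK-activating kinase had a median of -0.09, and Cdk7 was at 68.9 ± 6.34 and 70.7 ± 7.32 CPM.

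Of 13 genes of the RB family and E2F partners, 4 were higher and 9 lower, with a median of -0.08. At an unadjusted p under 0.05 from limma were 2 higher and 2 lower, where 10.2% of all genes were. E2f7, a repressor among the E2F factors, had the largest difference, 2.02 (adjusted p = 0.413 from limma), at 0.824 to 103 CPM in the DKO lines and 0.622 to 21.2 CPM in the E2a-/- lines, where 8.12 CPM was the highest without the library labelled SKO132. Tfdp1, which codes for the partner of E2F proteins, was at 434 ± 55.1 and 423 ± 51.9 CPM. Of 13 genes for the turnover of inhibitors and cyclins, 6 were higher and 7 lower, with a median of -0.05. Under that unadjusted limit were 2 higher and 1 lower, against the same 10.2% of all genes. Skp1a was at 465.8 ± 88.6 and 384 ± 62.1 CPM (log2 difference 0.27, adjusted p = 0.472 from limma), and Cul4a had the largest difference, -0.35 (adjusted p = 0.519).

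In the p53 and ARF axis, 2 of 8 genes were higher and 6 lower, with a median of -0.15. In each direction 1 had an unadjusted p under 0.05 from limma, where 10.2% of all genes did. Cbx7, a Polycomb gene known to silence Cdkn2a, was at 10.8 ± 5.32 CPM (SD, n = 8) over the DKO lines and 25.7 ± 12.9 CPM (SD, n = 7) over the E2a-/- lines, which is a log2 difference of -1.25 (adjusted p = 0.327 from limma). Npm1, whose product binds p19Arf, was at 2319 ± 381 and 1912 ± 221 CPM. Of 17 other target genes of p53, 12 were higher and 5 lower in DKO, with a median of 0.20, and 0 had an adjusted p under 0.05. At an unadjusted p under 0.05 from limma were 0 higher and 1 lower, against the same 10.2% of all genes. Bax, which promotes cell death, was at 103 ± 35.6 and 83.2 ± 21.7 CPM, and Phlda3 had the largest difference, 1.01 (adjusted p = 0.562 from limma). The difference of 2.41 in Cdkn1a was larger than that of any gene of this list.

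Of 27 genes for transcription factors known at Cdkn1a or D cyclin genes, 14 were higher and 13 lower, with a median of 0.04, and 4 higher and 3 lower had an unadjusted p under 0.05 from limma, where 10.2% of all genes did. Of the lower, 1 was Lef1, the gene deleted by design. Tcf7, which codes for TCF1 and was the most abundant per length, was at 2862 ± 461 CPM (SD, n = 8) over the DKO lines and 1878 ± 487 CPM (SD, n = 7) over the E2a-/- lines. That is a log2 difference of 0.66 (adjusted p = 0.241 from limma), and DKO was higher in 55 of 56 pairs of lines. Tcf4, an E protein gene, had the largest difference, 2.76 (adjusted p = 0.325 from limma), with groups that overlap.

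Markers of replication and mitosis, 24 genes, summed to 9764 to 11187 CPM in the DKO lines (median 10145) and 9519 to 11921 CPM in E2a-/- lines (median 10792). The low end of the latter is the library labelled SKO132, and without it they began at 10257 CPM, above DKO79.9, DKO102.4, DKO170.2, DKO713 and DKOTu3, while SKO95, SKO137.1 and SKO163.5 were above every DKO line. Of the 24 genes 6 were higher and 18 lower, with a median of -0.04 and 0 at an adjusted p under 0.05. At an unadjusted p under 0.05 from limma were 0 higher and 1 lower, where 10.2% of all genes were. Pcna was at 545 to 999 CPM in the DKO lines and 501.5 to 872 CPM in the E2a-/- lines. Bub1, a kinase of the mitotic checkpoint, had the largest difference, -0.35 (adjusted p = 0.155 from limma). A difference between the sums was not tested.

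The T-lineage markers, 18 of 18 read, summed to 5490 to 7600 CPM in the DKO lines and 2596 to 6144 CPM in the E2a-/- lines, with Cd3g the most abundant per length, at 616 ± 197 and 488 ± 173 CPM. Of these markers 12 were higher and 6 lower in DKO, with a median log2 difference of 0.11. At an unadjusted p under 0.05 from limma were 1 higher and 1 lower, where 10.2% of all genes were. Il2ra had the largest difference, at 12.4 to 1636 CPM in the DKO lines and 0.827 to 678 CPM in the E2a-/- lines. Myeloid markers, 3 of 8 read and with Cd68 the most abundant per length, summed to 8.99 to 18.9 CPM over the 15 lines. Stromal markers, 3 of 8, summed to 93.5 to 1113 CPM in the DKO lines and 56.3 to 580 CPM in the E2a-/- lines, with Col1a2, the most abundant per length, at 0 to 947 CPM in the DKO lines and 1.84 to 278 CPM in the E2a-/- lines. Epithelial markers, 3 of 6 and with Cdh1 the most abundant per length, summed to 0 to 233 CPM. Of the natural killer and innate lymphoid markers, Zbtb16 had the largest difference, -2.76 (adjusted p = 0.268 from limma), while Klrb1c lay the other way, at 0 to 1.37 CPM in the DKO lines and 0 to 0.276 CPM in the E2a-/- lines, and the sum of that list is not reported here. The listed B cell and erythroid markers were not analysed here. T-lineage markers were thus read in every line, and the part of the other markers in the values above was not tested.

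Promoter windows from RefSeq (GRCm38.p6), 250 bases before to 50 after a start, were found for 8 of the 10 members, 12 windows in all. Both strands were searched for 4 forms of TCF/LEF letters, of which CTTTGAA is the first form, CTTTGAT is the second form, CTTTGTA is the third form and CTTTGTT is the last form. The E box was searched as CANNTG and the RBPJ letters were TGGGAA. The E2F letters were TTTCCCGC, with TTTGGCGC and likewise TTTCGCGC as other forms. TCF/LEF letters were in 2 of 12 windows (16.9% of 32851 windows of all genes), those of Cdk4 and of a start of Ccnd3. The E box was in 5 (72.3% of all), RBPJ letters in 4 (25.6%) and E2F letters in 1 (1.84%). The window of Cdk4 had the E box CACGTG at 4 places.

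The consensus of the p53 response element was searched as well, a choice made after the values were seen. Without a mismatch it was in 0 of 12 windows and in 0.00913% of all. With at most 1 mismatch outside its cores, a form chosen after the first had matched no member window and the windows had been read, it was in 1 of 12 and in 18 of 32851 windows (0.0548%). That window is the upstream one of Cdkn1a, with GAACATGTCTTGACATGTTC from 51 bases before the start. A match is a description of letters and no measure of binding.

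The 250 bases before each start of Cdkn1a, the member whose groups stood apart, and of Cdkn2a, the member at or near 0 in 6 lines, are printed 5′ to 3′ on the strand of the gene. Capitals mark the letters matched by any of the motifs above, and a match that runs past the start is marked in part. The stretches printed for Cdkn1a are on the plus strand at chr17:29090729-29090978 and chr17:29093519-29093768. Those of Cdkn2a are on the minus strand at chr4:89294620-89294869 and chr4:89282193-89282442, and the first of them lies farther upstream.
Cdkn1a upstream start: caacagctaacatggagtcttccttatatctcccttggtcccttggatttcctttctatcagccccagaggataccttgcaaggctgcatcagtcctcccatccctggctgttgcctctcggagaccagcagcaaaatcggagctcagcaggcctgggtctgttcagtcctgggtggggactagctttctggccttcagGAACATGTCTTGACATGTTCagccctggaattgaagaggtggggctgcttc
Cdkn1a downstream start: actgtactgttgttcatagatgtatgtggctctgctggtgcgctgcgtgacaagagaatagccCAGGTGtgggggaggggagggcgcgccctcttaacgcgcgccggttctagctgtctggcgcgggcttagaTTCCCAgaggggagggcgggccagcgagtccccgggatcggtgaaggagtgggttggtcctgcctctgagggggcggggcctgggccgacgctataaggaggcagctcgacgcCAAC
Cdkn2a upstream start: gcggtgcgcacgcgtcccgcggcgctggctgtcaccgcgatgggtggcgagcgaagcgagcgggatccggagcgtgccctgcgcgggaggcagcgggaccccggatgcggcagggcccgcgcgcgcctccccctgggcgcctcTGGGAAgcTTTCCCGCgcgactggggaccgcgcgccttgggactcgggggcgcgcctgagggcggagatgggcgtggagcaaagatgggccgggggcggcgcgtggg
Cdkn2a downstream start: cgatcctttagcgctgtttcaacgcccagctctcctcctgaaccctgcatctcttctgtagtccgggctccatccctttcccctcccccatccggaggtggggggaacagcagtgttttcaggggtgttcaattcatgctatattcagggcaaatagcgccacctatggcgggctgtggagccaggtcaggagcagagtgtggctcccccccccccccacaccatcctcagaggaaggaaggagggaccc
In the windows of Cdkn1a TCF/LEF letters were not found, and the downstream window of Cdkn2a held none of the motifs.

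In the listed coordinates, which for most genes differ from GRCm38, Cdkn1a (ENSMUSG00000023067) lies at chr17:29227924-29237667, Cdkn2a (ENSMUSG00000044303) at chr4:88920377-88940557, Ccnd2 (ENSMUSG00000000184) at chr6:127075797-127101066 and Ccnd3 (ENSMUSG00000034165) at chr17:47642000-47736632. Cdk6 (ENSMUSG00000040274) lies at chr5:3343893-3523218 and Cdk4 (ENSMUSG00000006728) at chr10:126500590-126504976.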

How the data were processed

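RNA from 15 leukemia lines, 8 DKO and 7 E2a-/-, was sequenced by the authors with 1 library per line. Per the labels and the study's methods, reads were trimmed with Trimmomatic (version 0.33), aligned with TopHat2 (version 2.1.0), counted with HTSeq (version 0.6.1) and scaled with edgeR. CPM computed by the authors are what was deposited. Dividing them by the lowest value above 0 of a line gave whole reads, within 0.05 reads, for 100% of values, and those reads were used for count tests alone.

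limma (version 3.58.1, R version 4.3.3) with a variance trend was fitted to log2(CPM + 1) of 12545 genes, 2-sided, with Benjamini-Hochberg adjustment over all of them and the study's threshold of 0.01. Differences are on that scale, which understates those of low genes. Exact permutation tests covered all 6435 divisions of the lines and were not adjusted. Alternatives were pseudocounts of 0.1 and 2, a mean of at least 1 CPM, no trend, array weights, scaling by TMM, upper quartile or median of ratios, a threshold of 0.05, edgeR (version 4.0.16) quasi-likelihood and likelihood ratio tests, DESeq2 (version 1.42.0), each line left out, and SKO156.6 and SKO186.5, the most alike pair, averaged. Lengths from GENCODE M21 and the p53 motif were added after seeing the data.

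The members and lists were chosen with earlier results of these data known. Genes were named if they were members, had an adjusted p under 0.05 or groups that did not overlap, were the most abundant per length or had the largest difference of their list, lay within 3 places of a member, or were among the 3 most like it. Klrb1c and the genes read in SKO132 were named after their values were seen. Some genes that this rule takes are not reported here. The tests were tested on simulated data. The simulated counts had the same relative spread for all genes, so how the tests behave on lines as varied as these was not shown. The listed coordinates mostly differ from GRCm38, since 190 of 12176 genes start within 1 base of it, and are given as listed.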

Additional observations from a re-analysis of the deposited data

Results flagged for a closer look

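Of 22 groups of lines examined, 11 genes in each genotype, 3 held a line whose gap to the nearest other line was large against the range of its group on the log2(CPM + 1) scale, and chance alone gives such a gap in about 5% of groups. Cdkn1a in SKO95 was at 3.13 CPM, where the other E2a-/- lines were at 16.3 to 40.4 CPM. Cdkn2a in the library labelled SKO132 was at 125.4 CPM, where the other E2a-/- lines were at 0 to 6.50 CPM. Lef1 in the library labelled SKO132 was at 59.0 CPM, where the other E2a-/- lines were at 668 to 1558 CPM. No explanation was tested for these values.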

How the results depend on the processing

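The number of genes with an adjusted p under 0.01 was 6, and it was 29 with array weights, 1 with edgeR's quasi-likelihood test, 155 with its likelihood ratio test, 177 with DESeq2, 19 at an adjusted p under 0.05, and 3 to 17 with 1 line left out (17 without SKO132, 10 without DKO79.9, 3 without DKO170.2, DKO713, SKO137.1 or SKO156.6). The number of members was 0, and it was 1 with the likelihood ratio test, with DESeq2 and at an adjusted p under 0.05, and 0 to 1 with 1 line left out. The log2 difference of Cdkn1a was positive under all 27 alternatives. It passed the threshold at 2.34 with the likelihood ratio test, 2.37 with DESeq2 and 2.05 without SKO95, and ranged from 2.05 to 2.60 with 1 line left out, with adjusted p from 0.00730 to 0.0714 in those fits and from 1.8e-06 to 0.0714 over all 27, and it was over 0.05 in 7 of the 15 left-out fits, with the quasi-likelihood test and with SKO156.6 and SKO186.5 averaged. The log2 difference of Ccnd3 ranged from -0.40 without the library labelled SKO132 to 0.0365 with 1 line left out, with 0.00799 without DKOTu3 and 0.0365 without SKO95, and that of Cdk6 from -0.51 to 0.0966, with 0.0966 without DKO170.2. The log2 difference of Cdkn2a ranged from -3.38 to -0.17 over the 27 alternatives. The causes were not tested. The other members kept their sign in all fits run. Cdkn2a was at or near 0 in 6 lines, 4 at a limit of 1 read and 8 at a limit of 1 CPM. No paired analysis was possible because line numbers are not shared between the genotypes. Depth limits what can be said of Cdkn2a, Ccnd1 and Ccnd2 in lines with 3 reads or fewer.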
